A study of Mus musculus with 40 samples.

Results

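Transcripts of 9 factors that shorten and destroy messenger RNA were followed in mouse oocytes through 5 stages of follicle growth. The genes sought were 10: Btg4, Cnot6l, Cnot7, Zfp36l2, Dcp1a, Dcp2, Pabpn1l, Ythdf2, Pan2 and Xrn1. A probe set, the group of short array probes that together report 1 transcript, was taken where the platform annotation gave exactly 1 of these symbols. That found 20 of the 45037 probe sets, 16 on the 430A array type and 4 on 430B, for 9 of the 10 genes. No probe set carried the symbol Ythdf2 alone, so this m6A reader was not analysed here.

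An oocyte stops transcription at the end of its growth, and the messages it has stored are later removed in an ordered way during meiotic maturation and after fertilization. Removal usually starts at the poly(A) tail, which the CCR4-NOT and PAN2-PAN3 deadenylases shorten, and goes on with removal of the cap by DCP2 and digestion of the body by the exonuclease XRN1. In oocytes the adaptor BTG4 brings CCR4-NOT to its targets, PABPN1L is a poly(A)-binding protein that works with BTG4, and ZFP36L2 binds AU-rich elements.

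Oocytes came from SJLB6 females and were pooled, 400 per sample at the primordial stage (mice 2 days old), 90 at primary (6 days), 60 at secondary (12 days), 30 at small antral (17 days) and 20 at large antral (24 days). Each stage had 4 replicates on each of the 2 array types, 40 samples in all, from amplified RNA. The labels name no mutant allele and no treatment. Mouse age and pool size changed with the stage and cannot be told apart from it, and the labels do not say which animals gave which replicate, so p-values measure the spread between these samples. The extraction text of 3 of the small antral 430B samples is that of secondary oocytes (12 days, 60 oocytes), and their titles were followed. Among the members they bear on the 4 probe sets of 430B alone. They also enter the 430B readings of other genes below and the spread used in every 430B comparison. Without them 1 small antral array of 430B is left. The fall of Dcp2 1455070_at from small antral to large antral was then log2 -0.72, where all samples gave -0.68.

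Signals were scaled so that the trimmed mean of each array was 500, and 32 was added before log2 was taken, which understates the fold change of low signals. A scaled signal is a share of the array's total, so less of a transcript per oocyte and fewer oocytes that hold it cannot be told apart. The share also need not follow the amount per oocyte, since total RNA per oocyte is not known here. A fall below is therefore a fall in share and not a measured loss of message per oocyte. The share of an array reaching 100 was 57.4% to 65.3% for 430A and 65.8% to 73.8% for 430B. The primordial stage needs care. The deposited values of its replicates 2 to 4 have the form of a mean with replicate 1: doubled and with replicate 1 taken away, 0 of 22526 values on 430A were negative, whereas other pairs of arrays gave 1120 to 2857, and on 430B 0 of 22411 were negative against 1989 to 3790. The values below are therefore unmixed (2 times the replicate, less replicate 1), and the changes as deposited are set beside them further on. Unmixed primordial arrays had a mean correlation with their replicates of 0.853 to 0.918 on 430A, against 0.963 to 0.981 at the other stages, and 0.765 to 0.778 on 430B, against 0.888 to 0.914. Their log2 ratios of 3′ to 5′ probe sets for beta-actin, a sign of RNA or amplification quality, were 1.77, 2.44, 2.18 and 2.34 in replicates 1 to 4 of 430A as deposited and 1.77, 5.94, 3.03 and 6.24 unmixed. In the secondary, small antral and large antral arrays they ran from 2.28 to 4.16. No ratio was available for the primary arrays of 430A, and on 430B only for the primary ones. Primordial and primary arrays could therefore not be compared by it. The part of RNA quality in the primordial values was not tested.

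Promoter sequence is shown for Btg4 and Pabpn1l, both of which rose from primordial to primary, and for Xrn1, which fell, because E-box elements (CANNTG, its own reverse complement, so that both strands are covered) are known to serve oocyte transcription factors. Windows from RefSeq (GRCm38.p6) were read for 6 of the 9 measured genes and cover the 250 bases upstream of an annotated start site, written along the gene's strand, with E-boxes in capitals. Cnot7 and Zfp36l2 had no window to read, and Dcp2 was left out of the reading. The windows shown lie at chr9:51115751-51116000 on the plus strand for Btg4, chr8:122622736-122622985 on the minus strand for Pabpn1l and chr9:95954510-95954759 on the plus strand for Xrn1. The Btg4 window lies inside the span that the same annotation gives the gene, so it belongs to 1 of its start sites and not to the outermost one.
Btg4: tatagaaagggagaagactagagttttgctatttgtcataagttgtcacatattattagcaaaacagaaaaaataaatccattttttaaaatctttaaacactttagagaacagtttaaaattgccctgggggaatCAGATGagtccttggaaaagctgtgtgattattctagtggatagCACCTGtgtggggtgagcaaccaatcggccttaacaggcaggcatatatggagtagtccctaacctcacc
Pabpn1l: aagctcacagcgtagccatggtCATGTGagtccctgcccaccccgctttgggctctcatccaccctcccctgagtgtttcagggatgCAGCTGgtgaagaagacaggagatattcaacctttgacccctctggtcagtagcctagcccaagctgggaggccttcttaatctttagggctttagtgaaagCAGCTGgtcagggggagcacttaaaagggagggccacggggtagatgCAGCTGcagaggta
Xrn1: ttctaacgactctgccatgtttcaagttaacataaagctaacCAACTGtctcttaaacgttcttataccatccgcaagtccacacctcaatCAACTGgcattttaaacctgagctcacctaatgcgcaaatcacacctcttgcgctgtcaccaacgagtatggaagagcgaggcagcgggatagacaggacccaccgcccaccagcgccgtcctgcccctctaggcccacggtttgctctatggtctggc
The Btg4 window holds 2 E-boxes, the Pabpn1l window 4 and the Xrn1 window 2. An E-box was present in 66.2% of the 32841 windows of this length, so its presence is common. The TAATTG element that NOBOX is known to bind (searched on both strands) was in none of these 3 windows and in 7.17% of all. The windows differ in CpG content: the observed over expected CpG ratio was 0.113 in Btg4 and 0.156 in Pabpn1l but 0.772 in Xrn1, where the median of all windows was 0.374. Those of Dcp1a (0.866) and Pan2 (0.817) were also above that median, so the genes that rose from primordial to primary included windows on both sides of it.

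Of the 20 probe sets, 19 passed the filter on low signals (at least 4 arrays at 100) and were tested, 15 on 430A and 4 on 430B. The 5 comparisons were made with limma, with Benjamini-Hochberg adjustment over all probe sets of an array type, and a probe set was called at an adjusted p under 0.05. From primordial to primary 7 of the 15 probe sets on 430A rose and 2 fell, where 24.9% and 25.1% of all 15868 tested did. On 430B 2 of 4 rose and 1 fell, against 10.2% and 12.1% of 19095. From primary to secondary 2 rose and 2 fell on 430A (10.5% and 8.83% of all), and 1 rose and 1 fell on 430B (3.33% and 1.95%). From secondary to small antral 4 rose and 1 fell on 430A (6.79% and 10.5% of all) and 0 of 4 changed on 430B (2.07% rose and 3.1% fell). From small antral to large antral 2 rose and 0 fell on 430A (5.01% and 6.46%), and on 430B 0 rose and 1 fell (0.388% and 1.15%). Over the whole of growth, from primary to large antral, 7 rose and 2 fell on 430A (19.7% and 21.4%), and 2 rose and 1 fell on 430B (7.18% and 7.63%). With so few probe sets these counts describe the members and are not evidence about the class.

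Counted once per gene by the probe set with the highest mean log2 signal (430A before 430B), 6 of 9 genes rose and 1 fell from primordial to primary (23.2% and 18% of all 15450 genes), with a median log2 change of 0.87 beside -0.02 for all genes. Rises and falls were 2 and 2 from primary to secondary (10% and 6.61% of all genes), 2 and 1 from secondary to small antral (5.92% and 9.06%) and 2 and 1 from small antral to large antral (3.09% and 4.86%). From primary to large antral 5 rose and 2 fell (17.3% and 17.4%), and the median change was 0.53 beside 0.02.

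**Figure D1:**
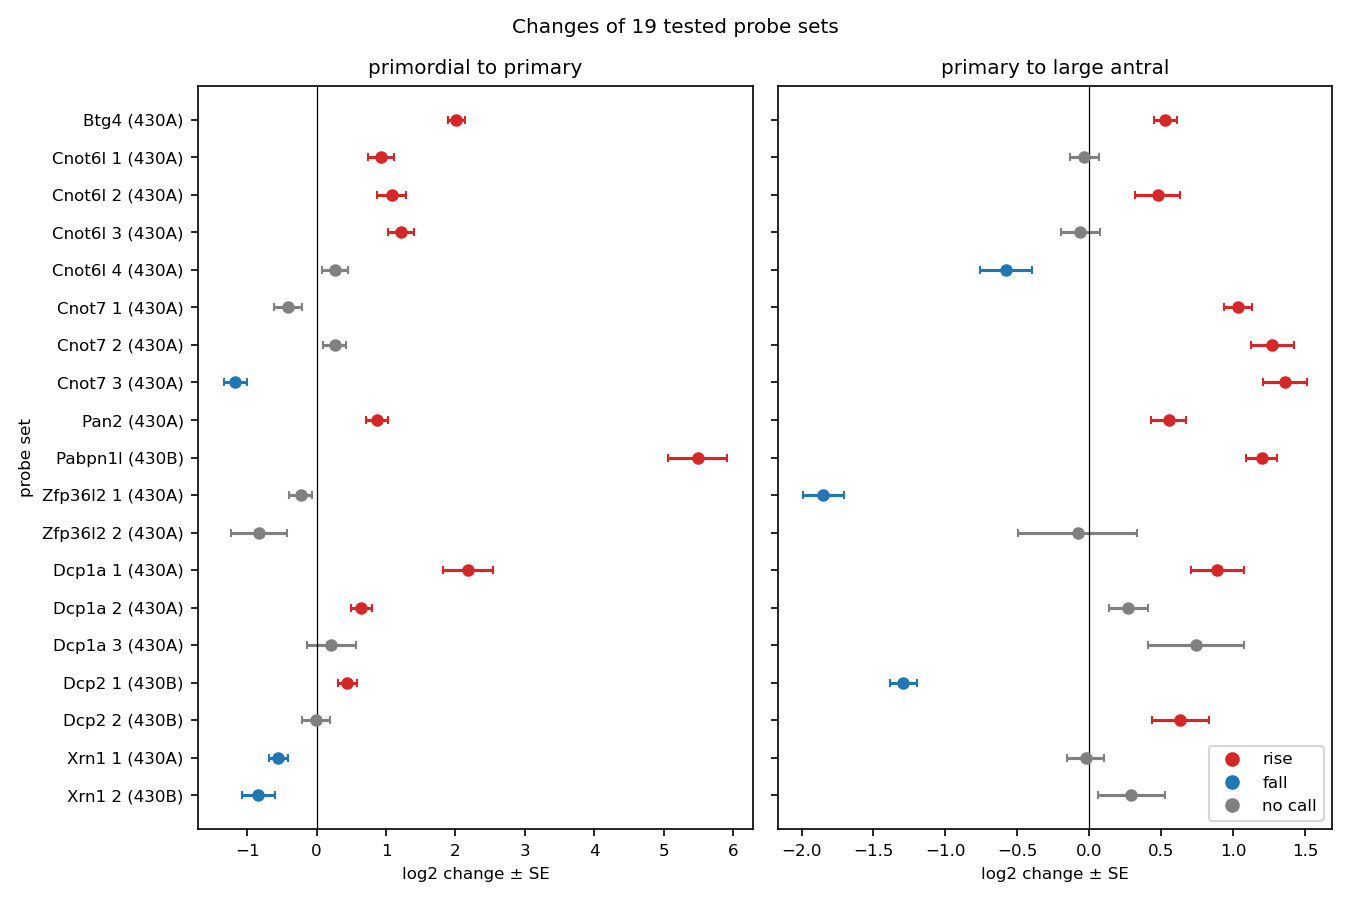
Log2 change ± SE (limma, on the log2(signal + 32) scale) of the 19 tested probe sets from primordial to primary (left, unmixed primordial values) and from primary to large antral (right); red rose, blue fell and grey did not pass an adjusted p of 0.05, and probe sets of a gene are numbered in the order in which the text names them. Pabpn1l stands far to the right on the left panel at 5.49, and Zfp36l2 far to the left on the right panel at -1.85.

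Btg4, the adaptor that couples CCR4-NOT to maternal messages, was already present in primordial oocytes and rose at the start of growth. Its scaled signals (probe set 1426520_at, 430A) were 2036, 3057, 2532 and 3006 in primordial replicates 1 to 4 and 11557, 10684, 9140.2 and 11503 in primary ones. All 4 primary samples lay above all primordial ones. The rise was 4.03-fold (log2 2.01 ± 0.12 SE, limma adjusted p = 2.05e-11). Secondary oocytes read 16391, 14084, 14268 and 15802, again above every primary sample (log2 0.50 ± 0.08, adjusted p = 0.000126). Small antral oocytes read 18722, 17477, 16918 and 16853, and large antral ones 15340, 16197, 14387 and 15819.9. Neither of these last steps passed the test: the log2 change was 0.21 ± 0.08 (adjusted p = 0.0708) into the small antral stage and -0.18 ± 0.08 (adjusted p = 0.147) out of it. The first of them was called without primary replicate 3 (adjusted p = 0.0418) and without secondary replicate 1 (adjusted p = 0.0463). Of 15868 tested probe sets of 430A, 447 rose more than Btg4 from primordial to primary.

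Pabpn1l, the poly(A)-binding partner, had the largest rise of these factors and was called at the first 2 steps. Primordial oocytes read 31.7, 786, 242 and 74.3 (probe set 1439991_a_at, 430B), with replicate 2 highest, and primary oocytes 9387, 10239, 8172 and 7745. Every primary sample was far above every primordial one. The rise was log2 5.49 ± 0.43 (limma adjusted p = 6.62e-10), and only 1 of the 19095 tested probe sets of 430B rose more in that fit. Its SE comes from 1 spread shared by all 5 stages, whereas the primordial samples varied widely (mean 284, SD 347). With the primordial values as deposited the rise was 5.97 ± 0.33. Signal went on rising into secondary oocytes, at 18799, 18608, 17249 and 13648 (log2 0.94 ± 0.11, adjusted p = 6.93e-06). Small antral oocytes read 16429, 16943, 16423 and 16324, with no change called (log2 -0.04 ± 0.11, adjusted p = 0.939). Large antral oocytes read 17925, 21172, 22652 and 19798, above every small antral sample, yet the step did not pass (log2 0.30 ± 0.11, adjusted p = 0.216). Between primary and large antral the rise was 1.20 ± 0.11 (adjusted p = 3.57e-08).

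**Figure D2:**
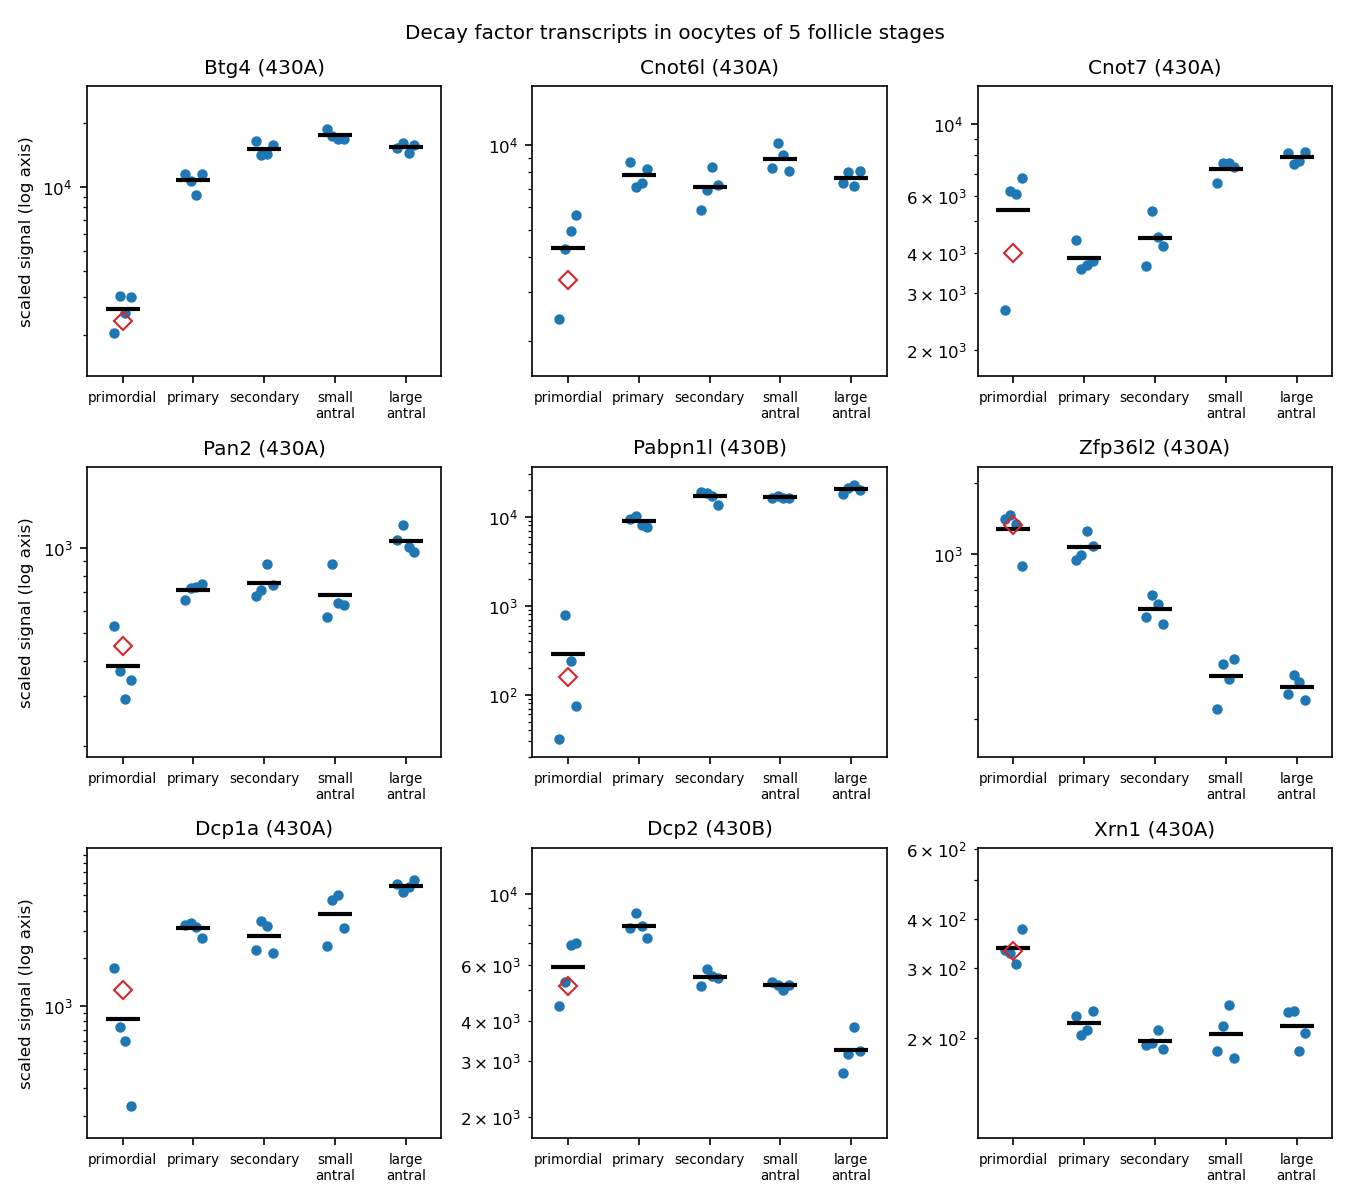
Scaled signal (log axis) of 1 probe set for each of the 9 genes, the one with the highest mean log2 signal (430A before 430B), in oocytes of 5 follicle stages; blue points are the 4 replicates, black bars their mean, and red diamonds the mean of the primordial values as deposited. Btg4 and Pabpn1l climb at the primary stage and stay high, Zfp36l2 steps down from a mean of 1064 at primary to 272 at large antral, and Dcp2 falls to a mean of 3233 at large antral.

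Cnot6l, a catalytic subunit of CCR4-NOT, had 4 probe sets that did not move alike. The one with the highest mean, 1425480_at, read 2396, 4271, 4927 and 5643 in primordial oocytes and 8752, 7105, 7353 and 8227 in primary ones. No primordial sample reached the lowest primary sample, and the change was log2 0.93 ± 0.18 (limma adjusted p = 0.000238). The probe sets 1425481_at and 1451723_at rose as well, by 1.08 ± 0.21 (adjusted p = 0.000169) and 1.21 ± 0.19 (adjusted p = 1.21e-05). The fourth, 1434311_at, gave 0.26 ± 0.19 (adjusted p = 0.262). The stage means of 1425480_at from primary to large antral were 7859, 7101, 8949 and 7654. It was called higher in small antral than in secondary oocytes (log2 0.34 ± 0.10, adjusted p = 0.0249), although samples overlapped and the call was lost in 8 of 27 alternative settings, among them those without secondary replicate 1 or 2 or small antral replicate 2 or 3. The probe set 1425481_at was called higher in large antral than in primary oocytes (log2 0.48 ± 0.16, adjusted p = 0.0206), a call lost without primary replicate 1 or large antral replicate 2 or 3. The change of 1451723_at from primary to secondary, -0.34, was called only without secondary replicate 2 (-0.45, adjusted p = 0.0233) and with a replicate block. In contrast 1434311_at fell from primary samples of 733, 684, 657 and 754 to secondary ones of 308, 411, 507 and 269 (log2 -0.90 ± 0.18, adjusted p = 0.00148), with no overlap. It stayed lower at large antral (453, 478, 479 and 439; log2 -0.58 ± 0.18 from primary, adjusted p = 0.0146). What sets the fourth probe set apart was not tested.

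Cnot7, another catalytic subunit of CCR4-NOT, rose late in growth in all 3 of its probe sets. The one with the highest mean, 1423641_s_at, read 4376, 3570, 3671 and 3771 in primary and 3650.1, 5368, 4481 and 4207 in secondary oocytes, which overlap. Small antral samples at 6586, 7566, 7587 and 7345 and large antral ones at 8124, 7533, 7675 and 8191 all lay above both. The step from secondary to small antral was log2 0.72 ± 0.10 (limma adjusted p = 2.4e-05), and from primary to large antral 1.03 ± 0.10 (adjusted p = 4.07e-08). The probe set 1460665_a_at went from a mean of 237 to 563 at the same step (log2 1.15 ± 0.15, adjusted p = 1.81e-05). The probe set 1430519_a_at rose from primary to secondary (log2 0.61 ± 0.15, adjusted p = 0.00682), from secondary to small antral (log2 0.48 ± 0.15, adjusted p = 0.0337) and by 1.36 ± 0.15 from primary to large antral (adjusted p = 3.75e-07). Its call from secondary to small antral was lost without secondary replicate 2, 3 or 4 or small antral replicate 1, 2 or 4. The change of 1423641_s_at from primary to secondary, 0.19, was called without secondary replicate 1 (0.28, adjusted p = 0.0471).

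The primordial level of Cnot7 depended on the probe set. In 1430519_a_at primordial samples of 509, 440.1, 349 and 325 stood above primary ones of 139, 180.5, 164 and 158, a fall of 1.17 ± 0.17 on the log2 scale (limma adjusted p = 6.44e-06). In 1423641_s_at primordial replicate 1 read 2655 and the others 6211, 6080.2 and 6795. The change there was -0.41 ± 0.20 (adjusted p = 0.0946) with all 4 and -0.72 (adjusted p = 4.97e-06) without replicate 1. As deposited, where replicate 1 enters the other 3 values, it was -0.02. In 1460665_a_at the change was 0.26 ± 0.17 (adjusted p = 0.206), and it was called at 0.38 (adjusted p = 0.0333) from the deposited values and at 0.44 (adjusted p = 0.0403) under median scaling.

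Pan2, the catalytic subunit of the deadenylase that trims long tails, rose at the beginning and at the end. Primordial oocytes read 530.3, 368, 293 and 343 (probe set 1426700_a_at, 430A) and primary ones 654, 723, 727 and 748, with no overlap (log2 0.87 ± 0.16, limma adjusted p = 9.93e-05). Secondary and small antral samples stayed between 571 and 881 and no step there was called. Large antral samples at 1066, 1208, 1012 and 965 were all above them, a rise of 0.63 ± 0.12 (adjusted p = 0.00268).

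Zfp36l2, the AU-rich element binding protein, fell at successive steps of growth. Its representative probe set, 1437626_at, read 1406, 1458, 1335 and 887 in primordial oocytes and 943, 991, 1245 and 1077 in primary ones, which overlap (log2 -0.23 ± 0.17, limma adjusted p = 0.265); without primordial replicate 4 the change was called at -0.39 (adjusted p = 0.0456). Secondary oocytes at 542, 670.4, 615 and 505 were below every primary sample (log2 -0.83 ± 0.14, adjusted p = 0.000294). Small antral oocytes at 219.96, 342, 296 and 357 were lower again (log2 -0.89 ± 0.14, adjusted p = 0.000155), and large antral ones at 255, 306, 286 and 241 overlapped them. Its fall from primary to large antral was 3.60-fold (log2 -1.85 ± 0.14, adjusted p = 2.16e-09), and 243 of 15868 tested probe sets fell more. The other probe sets read near or below 100. In 1451034_at samples ranged from 18.8 to 151 and no change was called, except from primordial to primary without primary replicate 1 (-1.17, adjusted p = 0.0213), and 1439054_at, at 18.8 to 66.8, was not tested. The fall therefore rests on 1 probe set.

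Dcp1a, the activator of the decapping enzyme, rose into the primary stage and again at the end. Primordial oocytes read 1733, 732, 602 and 232 (probe set 1433606_at, 430A), with replicate 1 highest, and primary ones 3255, 3336, 3135 and 2702. All primary samples were above all primordial ones. The rise was log2 2.18 ± 0.36 (limma adjusted p = 2.67e-05), but 1.30 ± 0.20 with the values as deposited. Small antral samples, at 2384, 4696, 5071 and 3103, were spread widely, and large antral ones at 5954, 5276, 5648 and 6248 lay above all of them (log2 0.66 ± 0.19, adjusted p = 0.0265). That last call was lost in 9 of 27 alternative settings, among them each of those without small antral replicate 1 or 4 and without large antral replicate 1, 3 or 4. From primary to large antral the rise was 0.89 ± 0.19 (adjusted p = 0.000593). Without small antral replicate 1 the step from secondary to small antral was called too (0.62, adjusted p = 0.0132). The probe set 1422131_at rose from primordial to primary by 0.65 ± 0.16 (limma adjusted p = 0.00169) and was called in no later step. In 1431933_a_at, at 14.9 to 124, no change was called with all samples. From primary to large antral it gave 0.74 ± 0.33 (adjusted p = 0.0819), called without primary replicate 3 or small antral replicate 2. It passed the low-signal filter on 4 arrays, all of them small or large antral. The filter itself therefore favoured a rise to large antral in this probe set.

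Dcp2, the enzyme that removes the cap, had 2 probe sets, of which 1 fell through growth. Primary oocytes read 7804, 8692, 7903 and 7283 (1455070_at, 430B), secondary ones 5146, 5830.2, 5515 and 5437, and all of the latter were lower (log2 -0.53 ± 0.09, limma adjusted p = 0.00102). Small antral samples at 5311, 5162, 5006 and 5181 overlapped the secondary ones. Large antral samples at 2744, 3140, 3827 and 3221 were below every small antral sample (log2 -0.68 ± 0.09, adjusted p = 0.000516). Its fall from primary to large antral was log2 -1.29 ± 0.09 (adjusted p = 1.55e-09). The probe set 1430150_at went the other way, from 412, 468, 602 and 522 in primary to 868, 760.1, 810 and 724 in large antral oocytes (log2 0.63 ± 0.20, adjusted p = 0.0314), a call lost without any of primary replicate 1 or 2 or large antral replicate 1, 2 or 3. Its change from secondary to small antral was called only without small antral replicate 1 (0.67, limma adjusted p = 0.0435). That leaves only the 3 small antral samples that carry the extraction text of secondary oocytes. With those 3 left out instead, the log2 change was -0.03, where all samples gave 0.50. Both probe sets carry the symbol Dcp2 and why they disagree was not tested.

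At the first step 1455070_at read 4444, 5295, 6903 and 7006 in primordial oocytes, below every primary sample, and its rise of 0.44 ± 0.13 was called (limma adjusted p = 0.0196). The direction depended on the scaling. With quantile normalization the change was -0.035 (adjusted p = 0.899), and under median scaling 0.80 (adjusted p = 0.000216). The median change of all 430B probe sets at this step was -0.19, which turned to 0.12 with the medians made equal (430A: -0.06 and 0.12). Leaving out primordial replicate 1 or 2 or primary replicate 2 also ended the call, at 0.31, 0.40 and 0.40, as did a fit without the mean-variance trend (adjusted p = 0.0746) and one of the 2 stages alone (adjusted p = 0.106). In all 6 of 31 settings did not give the call.

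Xrn1, the exonuclease that digests decapped messages, fell at the start, and no later step was called. Primordial oocytes read 333, 327, 308 and 377 (1450308_a_at, 430A) and primary ones 227, 203, 209 and 234, with no overlap (log2 -0.56 ± 0.14, limma adjusted p = 0.00178). From primary onward stage means were 218, 196, 205 and 214 and no step was called. The second probe set, 1442141_at on 430B, fell from 1056, 875, 753 and 622 to 331, 398, 549.5 and 515 (log2 -0.84 ± 0.24, adjusted p = 0.0132). This call was lost with median scaling (log2 -0.50, adjusted p = 0.159), quantile normalization (-0.65, adjusted p = 0.0575), array weights estimated per stage, chosen after seeing the data (-0.84, adjusted p = 0.0515) and without primary replicate 1 (-0.71, adjusted p = 0.0554).

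The size of the first step depended on how the primordial columns were read. As deposited, the 3 Cnot6l probe sets that rose gave larger log2 changes, 1.26, 1.39 and 1.49, and Dcp2 1455070_at gave 0.62. Pan2 gave a smaller one, 0.63. Btg4 gave 2.19, Xrn1 -0.54 and -1.03, and Cnot7 1430519_a_at -1.33. The 12 calls made from the unmixed values all kept their direction with the deposited ones, and Cnot7 1460665_a_at was called in addition. The deposited primordial replicates share replicate 1, so their SEs understate the spread.

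**Figure D3:**
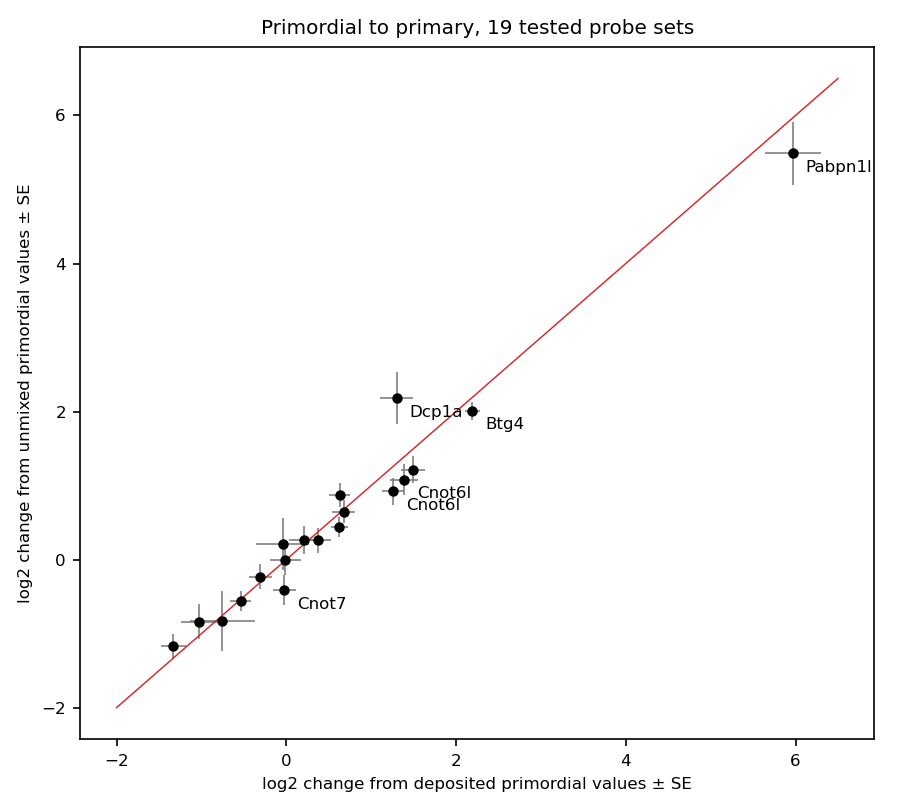
Log2 change from primordial to primary ± SE of the 19 tested probe sets, from the primordial values as deposited (x axis) and unmixed (y axis); the red line marks equal changes. A Dcp1a probe set at 1.30 and 2.18 lies farthest from the line, followed by Pabpn1l at 5.97 and 5.49.

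Genes whose pattern was most like each of 8 decay factors were found by Pearson correlation of log2 signals over 20 arrays of the same type, as a description, since the arrays share stages and scaling. Xrn1, whose stage means spanned less than 1 log2 unit, was left out. Nearest to Btg4 were Dclre1a (r = 0.992), Meis2 (r = 0.992) and the oocyte homeobox gene Obox2 (r = 0.992), whose mean signal went from 87.5 in primordial to 8188 in primary oocytes. Nearest to Pabpn1l were Accsl (r = 0.982), Tfap2e (r = 0.982) and Ccdc69 (r = 0.980). Zfp36l2 was closest to Zfp644 (r = 0.976), and then to Actg1 and Rnf11. Pan2 and Dcp1a shared their nearest gene, Ranbp9, at r = 0.957 and r = 0.972. Cnot6l was closest to Tiam1 (r = 0.953), Cnot7 to Itga8 (r = 0.946) and Dcp2 to Cdc14b (r = 0.925).

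The wider machinery was read from 103 other genes in 10 lists by role, of which 94 had a tested probe set. Each gene was read from 1 probe set, although some had several (9 for Tnrc6a, 6 for Angel2, 5 each for Cnot4 and Tob2). Other probe sets of a named gene were not described, so its change below is that of 1 probe set. From primordial to primary 37 rose and 26 fell, with a median log2 change of 0.20 (limma, adjusted p under 0.05). Of all genes 23.2% and 18% rose and fell. With any tested probe set of a gene counted, 38 of the 94 rose and 36 fell. That rule gives a gene with several probe sets more chances of a call. No share of all genes was computed by it, so the shares above cannot be set beside these counts. Patl2, an oocyte member of the PAT1 family of decapping activators, rose most among the decapping genes, from 1875 ± 497 to 20605 ± 1221 (SD, n = 4 each; log2 3.47, adjusted p = 4.64e-15). The helicase gene Ddx6 fell, from 8498 ± 2257 to 2344 ± 337 (log2 -1.81, adjusted p = 5.74e-08). Among CCR4-NOT genes 4 of 8 rose and 2 fell, with Cnot3 at log2 2.94 (2.38 from the deposited values) and Cnot4 at -1.25. Of 7 poly(A)-binding proteins and partners 4 rose and 2 fell, with Pabpc4 going from 1469 to 4119 and Pabpc1, the main cytoplasmic poly(A)-binding protein, from 5460.2 to 1374. Other deadenylases rose in 4 of 6 and fell in 1, with Angel2 going from 879 to 1998 and Parn from 3409 to 1674. Of 17 exonuclease and exosome genes 8 rose and 6 fell, with Exosc4 at 2.22 and Wdr61 at -2.28. Of 8 terminal uridylyl and poly(A) transferases 4 rose and 3 fell, with Tent4a at 2.30 and Tut4 at -1.09. The sequence and m6A readers, listed as recruiting decay, rose in 1 of 13 (Ythdf3, 0.80) and fell in 4, with Tnrc6a at -1.88. Whether each of them has that role was not tested. Of 9 m6A writers and erasers 3 rose and 2 fell, with Mettl14 at 1.25 and Fto at -1.58. Nonsense-mediated decay genes rose in 1 of 7 (Smg8, 0.76) and fell in 3, with Upf2 at -1.62. Of 4 BTG and TOB adaptors 2 rose, with Tob2 at 0.65.

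From primary to large antral 20 of the 94 genes rose and 28 fell, with a median log2 change of -0.08 (limma; 17.3% and 17.4% of all genes rose and fell). Sequence and m6A readers fell in 7 of 13 and rose in 2. Ythdf1, a close relative of Ythdf2, went from 5705 ± 233 to 1538 ± 87.2 (SD, n = 4 each, log2 -1.87, limma adjusted p = 5.09e-13), and Ythdc1 rose by 0.91. Decapping genes fell in 6 of 15 and rose in 1: Ddx6 fell further, to 437 ± 95.7 (log2 -2.36, adjusted p = 4.72e-11), and Lsm3 rose by 0.19. Exonuclease and exosome genes fell in 6 of 17 and rose in 2, with Wdr61 at -1.33 and Exosc8 at 1.29. CCR4-NOT genes rose in 4 of 8 and fell in 1. The one that fell was Cnot6, the close relative of Cnot6l, from 1125 ± 63.9 to 435 ± 102 (log2 -1.33, adjusted p = 1.54e-07). Poly(A)-binding proteins and partners rose in 2 of 7 and fell in 3, with the oocyte form Pabpc1l at 0.96 and Pabpc4 at -1.51. Transferases rose in 3 of 8 and fell in 2, with Papolg at 1.48 and Tut7 at -0.40. Nonsense-mediated decay genes rose in 3 of 7 and fell in 1, with Upf2 at 0.97 and Smg1 at -0.65. Among the rest Tob2 (0.60), Angel2 (0.87) and Virma (1.02) rose, and Tob1 (-1.01) and Cbll1 (-1.07) fell. At the steps between, 9 rose and 7 fell from primary to secondary (10% and 6.61% of all genes), 13 and 14 from secondary to small antral (5.92% and 9.06%), and 3 and 16 from small antral to large antral (3.09% and 4.86%). With unmixed primordial arrays in the fit these 16, 27 and 19 calls became 4, 16 and 5. The share of all genes called in that fit was not computed, so the drop is not shown to be particular to these genes.

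**Figure D4:**
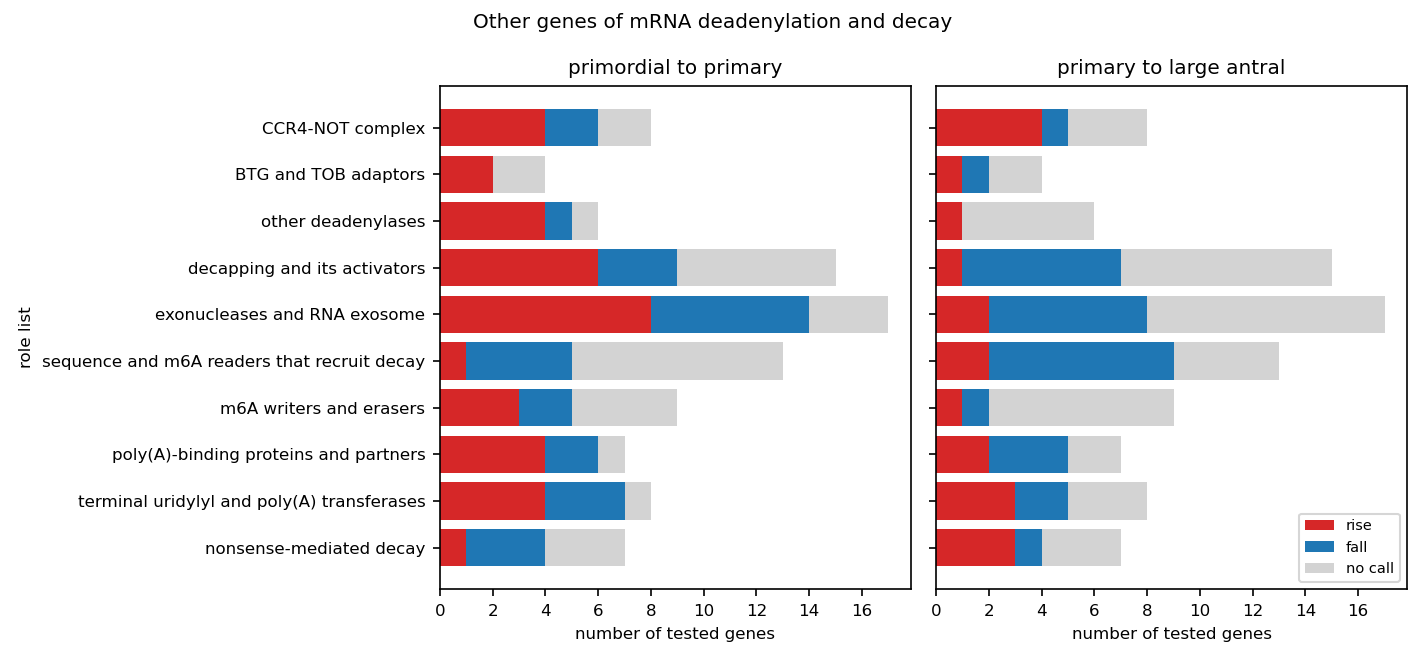
Number of tested genes in each of 10 role lists that rose (red), fell (blue) or were not called (grey) from primordial to primary (left) and from primary to large antral (right), for genes other than the 9 described one by one. The list of sequence and m6A readers shows 1 rise and 4 falls on the left and 2 rises and 7 falls on the right.

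Markers were read for the labelled cell type and for other cells of the ovary. All 7 oocyte markers had mean signals at or above 100 at every stage on 430A, and their summed signal ran from 36961 to 73443 in primordial samples, 89703 to 95057 in primary, 93829 to 107535 in secondary, 84372 to 93659 in small antral and 62429 to 69578 in large antral ones. Granulosa cell markers on 430A summed to 843 to 1521 at primordial, 1201 to 1493 at primary, 1665 to 1913 at secondary, 1835 to 1999 at small antral and 1805 to 1907 at large antral, with 10 of 12 listed on that array type. Amh, and the 430A probe sets of Amhr2 and Cyp11a1, stayed at 25.5 or less at every stage. A Cyp11a1 probe set on 430B had stage means of 319, 209, 548, 709.8 and 732 from primordial to large antral. Foxl2, on 430B, was at 1421 to 2111 throughout. On 430A stage means were 309 to 998 for Nr5a2, 223 to 568 for Inha, 188 to 228 for Kitl and 159 to 206 for Fshr. From primordial to primary 2 of 10 tested granulosa cell markers rose, Nr5a2 (log2 1.24) and Foxl2 (0.56). At that step 1 fell, Inha (-0.44), where 23.2% and 18% of all genes rose and fell. Stromal markers were higher in primordial samples (1177 to 2218) than in primary ones (749 to 968), and blood, immune and endothelial markers ran from 903 to 2304 and from 945 to 1429. Surface epithelium markers on 430A summed to 457 to 900 in primordial and 492 to 693 in primary samples. Of 10 tested granulosa cell markers 4 rose from primary to large antral and 0 fell (17.3% and 17.4% of all genes): Inha (log2 1.25, limma adjusted p = 5.28e-07), Hsd17b1 (1.72), Cyp11a1 (1.71, on 430B) and Fst (0.92). Signals of 2 of them were low, with means going from 13.4 to 111 for Hsd17b1 and from 39.8 to 99.7 for Fst. Hsd17b1 passed the low-signal filter only through its large antral samples (106 to 119), as no sample from primary to small antral exceeded 84.9. The filter therefore favoured its place among the 4 that rose. From primary to large antral 2 of 4 surface epithelium markers rose and 1 fell, 3 of 8 blood, immune and endothelial markers rose and 1 fell, and 0 of 5 stromal markers changed. The part of these other cells in the changes above was not tested.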

How the data were processed

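Oocyte RNA of 5 follicle stages was measured on Affymetrix 430A and 430B arrays. The deposited values are a linear intensity per probe set, made with MAS5 per the submitters' processing notes; version, genome build and scaling target are not given in the sources used here. Groups and replicate numbers came from the sample titles. Symbols came from the platform annotation, in which 20380 of 22626 probe sets of 430A and 14565 of 22411 of 430B had 1 symbol. The members and all gene lists were chosen with earlier results of these data known.

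Each array was set to a trimmed mean (2% off each end) of 500, and log2(signal + 32) was tested. Each array type had its own fit with limma 3.58.1 under R 4.3.3 (lmFit, eBayes with an intensity trend, two-sided tests, Benjamini-Hochberg per array type, no block). The primordial to primary comparison used all 20 arrays of a type with unmixed primordial values (15 residual degrees of freedom), and the others the 16 arrays of the growing stages (12). Unmixing was not applied to 100 probe sets of 430A, none of them a member. The number of arrays limits precision: the median SE of a log2 change between growing stages was 0.17 on 430A and 0.35 on 430B. The fit was tested on simulated data.

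Named were all members' probe sets, per role list the called gene with the largest rise and fall in the first step and from primary to large antral, and the 3 genes most like each member that spanned at least 1 log2 unit. Alternatives changed the scaling, offset, filter, variance model, samples fitted, primordial values and replicates. Replicate numbers were not taken to pair the samples. Of 48 same-numbered pairs of growing stages within an array type, 2 deviated together with a correlation over 0.1 (range -0.08 to 0.13). Primordial arrays were not among them, and pairing is not excluded by these values.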

Additional observations from a re-analysis of the deposited data

Results flagged for a closer look

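In 3 of 95 groups of 4 samples, 1 sample lay far from the other 3 (Dixon's test, gap over range above its critical value); chance flags about 1 in 20 groups. Primordial replicate 1 read 2655 for Cnot7 (1423641_s_at), with the others between 6080.2 and 6795. Small antral replicate 3 read 317 for Cnot7 (1430519_a_at), with the others between 392 and 409. Secondary replicate 1 read 359.6 for Dcp2 (1430150_at), with the others between 497 and 507.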

How the results depend on the processing

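Over the alternatives run, 2527 of 2593 values of single probe sets kept their side of the threshold, 47 lost a call and 18 gained one. The sign changed in 40, of which 39 belong to changes that were not called, such as Btg4 from small antral to large antral (-0.20 to 0.21 over the settings). The called change that reversed was Dcp2 1455070_at from primordial to primary, at -0.035 on the log2 scale with quantile normalization. Of the member probe sets called from secondary to small antral, 5 in all, 3 were called when only these stages were fitted, 3 with unmixed primordial arrays in the fit, and 3 (without small antral replicate 2) to 6 when 1 replicate was left out. With unmixed primordial arrays in the fit, the pathway genes called numbered 4 in place of 16 from primary to secondary, 16 in place of 27 from secondary to small antral, and 5 in place of 19 from small antral to large antral. Counting a pathway gene by any of its probe sets gave 30 at that last step. Shares of all genes or probe sets called were not computed for the alternatives of this section. Their counts therefore describe the members and pathway genes alone. With unmixed primordial arrays in the limma fit Pabpn1l also lost its calls from primary to secondary (adjusted p = 0.408) and to large antral (adjusted p = 0.082), as did Dcp1a 1433606_at (adjusted p = 0.0656) and Cnot6l 1425481_at (adjusted p = 0.0931) to large antral. The log2 changes stayed the same and the SEs grew, as the primordial spread entered them. To large antral the SE went from 0.11 to 0.43 for Pabpn1l, 0.19 to 0.36 for Dcp1a and 0.16 to 0.21 for Cnot6l. Why primordial arrays varied more was not tested. With the replicate number as a replicate block, 12 member probe sets were called from primordial to primary and 7 from secondary to small antral, and Cnot6l 1451723_at (-0.34, adjusted p = 0.036, primary to secondary), Btg4 (0.21, adjusted p = 0.0421) and Cnot6l 1425481_at (0.35, adjusted p = 0.0236, both secondary to small antral) gained a call in limma. Array weights per stage were added after seeing the data. Low signals limit Zfp36l2 1451034_at and Dcp1a 1431933_a_at.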
